A study of Homo sapiens with 14 samples.

Results

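The genes of the human topoisomerases TOP1, TOP1MT, TOP2A, TOP2B, TOP3A and TOP3B and of the tyrosyl-DNA phosphodiesterases TDP1 and TDP2 were followed in RNA-seq data of MDA-MB-231 cells. These 8 of 60876 annotated genes were chosen by symbol, because CX-5461 has also been described as a poison of topoisomerase II. All 8 had enough reads to be tested among the 15426 genes that passed the filter on low counts. MDA-MB-231 is an established triple-negative breast cancer cell line. The 14 libraries fell into 7 groups of 2 replicates, namely the control and, at 10, 30 and 120 min, cells given RBI2 or CX-5461 at 5 µM. RBI2 is an inhibitor of ribosome biogenesis, and CX-5461 is an inhibitor of RNA polymerase I that served as the positive control. The control cells are untreated according to the study's methods, while its results speak of DMSO. All comparisons with the control share its 2 libraries, and no source said whether replicates were separate cultures, so the p-values measure the spread between these libraries, which may be technical. In bulk RNA such as this, fewer cells in a phase or state and less RNA per cell cannot be told apart.

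Topoisomerases cut DNA, let strands pass or turn, and seal the cut again, and during the reaction a tyrosine of the enzyme is joined to the DNA end. Type IB enzymes cut a single strand and release the torsion that builds up around polymerases, type II enzymes cut both strands and untangle whole helices, and type IA enzymes pass single strands. A poison holds the enzyme on the cut DNA, and TDP1 and TDP2 free the DNA ends from such trapped protein.

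The catalytic tyrosine of the type II enzymes is the residue that a topoisomerase II poison leaves joined to DNA. The coding stretch around its codon is shown from the GENCODE release 44 transcripts TOP2A-201 and TOP2B-201 (GRCh38), since both paralogs carry it and reads of one could be taken for the other where sequences are the same. The capitals mark codon 805 of TOP2A and codon 826 of TOP2B.
TOP2A-201: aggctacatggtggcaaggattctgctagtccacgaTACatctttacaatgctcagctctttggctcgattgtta
TOP2B-201: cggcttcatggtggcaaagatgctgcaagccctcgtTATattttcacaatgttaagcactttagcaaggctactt
These stretches of 75 bases had 53 bases in common (70.7%). No run of 31 bases was shared between any transcript of TOP2A and any of TOP2B, nor within the pairs TOP1 and TOP1MT, TOP3A and TOP3B, and TDP1 and TDP2. The processed pseudogene TOP1P1 shared 279 such runs with TOP1 and had at most 1 read in any library, while TOP3BP1 shared 1086 with TOP3B and had 0 reads.

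The libraries held 14112299 to 24849354 assigned reads (median 16305236). The mitochondrial share was 20.6% in control replicate 2, against 8.14% to 11.3% elsewhere. The libraries also differed in a trend with base composition. The median log2 CPM (counts scaled to the library size by TMM) of the genes in the highest quartile of GC content, less that of the genes in the lowest quartile, each relative to the mean of the 14 libraries, was -0.74 in control replicate 2. It lay between -0.28 and 0.35 in the others, and the highest values were 0.35 and 0.26 in RBI2 at 120 min and 0.31 in CX-5461 at 30 min replicate 2. The names of the deposited files gave another time than the sample label in 12 of 12 treated libraries. Times are written here as the labels give them, and a time named here means that label. Of the markers of the cell line, VIM (2779 to 3387 CPM), CD44 (870 to 1252 CPM), CAV1 (364 to 525 CPM) and AXL (1196 to 1592 CPM) were high. ESR1 and CDH1 reached at most 0.236 and 0.295 CPM, PGR had 0 reads, and GATA3 lay between 3.64 and 6.55 CPM. KRT8, which had been listed as low, lay between 412 and 626 CPM.

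Every gene of the set was expressed in every library. Compared per length in TPM, TOP2A was the highest with a median of 441 over the 14 libraries (222 to 555). TOP1 followed with 143 (125 to 162), and neither its range nor that of TOP2A met the range of the next gene. TOP2B had a median of 71.6 TPM, TDP2 of 55.2, TDP1 of 33.3, TOP1MT of 24.3, TOP3A of 21.8 and TOP3B of 8.21. In this order each gene was above the next in 14 of 14 libraries, with the exception of TOP1MT and TOP3A, where TOP1MT was above in 9 of 14. The ranges over the libraries met between TOP2B and TDP2, TDP2 and TDP1, TDP1 and TOP1MT, and TOP1MT and TOP3A. TOP2A was 6.62 times as high as its paralog TOP2B (median of the TPM ratio, 3.05 to 8.78), TOP1 5.98 times as high as TOP1MT, and TOP3A 2.76 times as high as TOP3B. SPO11, a meiotic relative of these enzymes, had 0 reads in all 14 libraries, where a count of 0 allows up to 0.213 CPM of the unscaled library total (without TMM, 3 reads of the smallest library, counting error only).

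**Figure D1:**
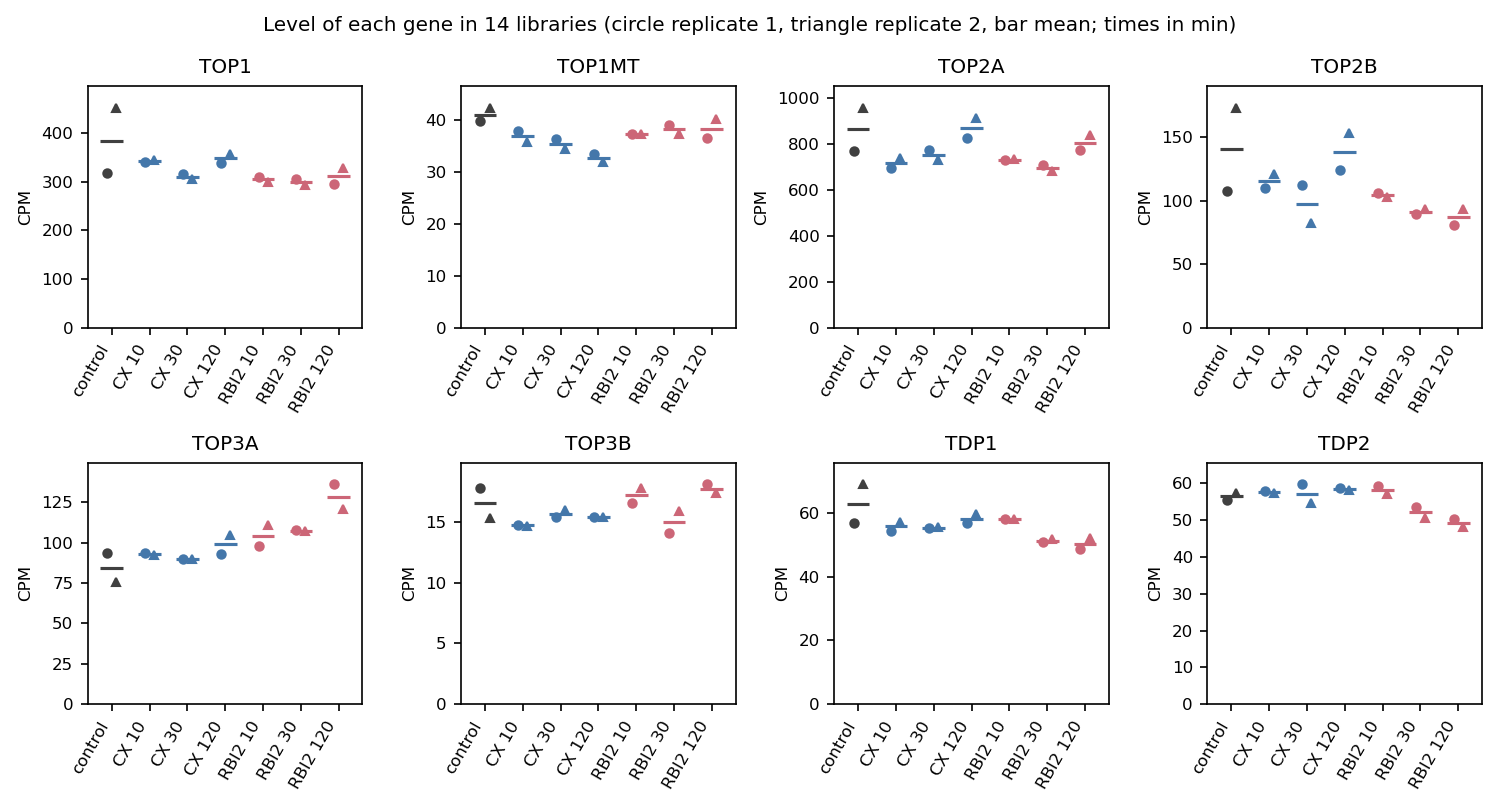
CPM of the 8 genes in each library, with circles for replicate 1, triangles for replicate 2 and bars for the mean of each group (grey control, blue CX-5461, red RBI2; CX 10 is CX-5461 at 10 min). Control replicate 2 is the highest library for TOP1, TOP1MT, TOP2A, TOP2B and TDP1 and the lowest for TOP3A, and the highest libraries for TOP3A are those of RBI2 at 120 min, at 121 and 136 CPM.

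A gene was called changed when its adjusted p was under 0.05 (quasi-likelihood test of edgeR, Benjamini-Hochberg over all genes tested) and its log2 fold change was 1 or more in either direction, the limit in the study's methods. By this rule 0 of the 8 genes changed in any of the 6 comparisons with the control, the 3 direct comparisons of the compounds at one label, or the comparison of the compounds over all times. The background was small as well: RBI2 changed 0.0778%, 0.0389% and 1.82% of all genes at 10, 30 and 120 min, and CX-5461 changed 1.64%, 0% and 0.0454%. In the direct comparisons 1.04%, 0.0130% and 1.67% of all genes changed, and over all times 0.927%. DESeq2 also called 0 of the 8 in each of these 10 comparisons, as did edgeR with an unadjusted p and the same limit on the fold. The fold changes of the set lay between -0.70 and 0.60 on the log2 scale. The smaller differences that passed the adjusted p alone are described by the role of the genes.

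**Figure D2:**
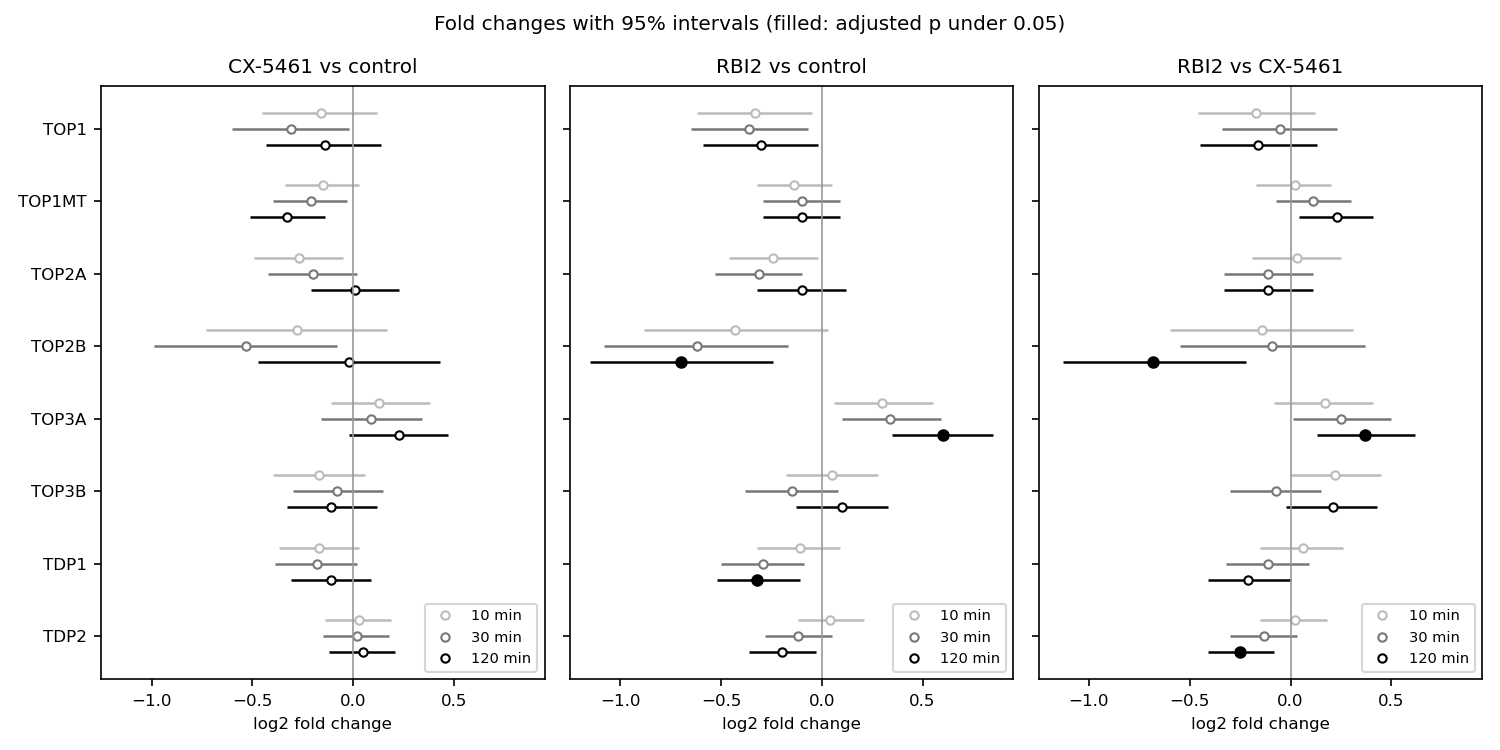
Log2 fold changes of the 8 genes with 95% intervals at 10, 30 and 120 min for CX-5461 against the control, RBI2 against the control and RBI2 against CX-5461. Filled points passed the adjusted p, and these are TOP2B, TOP3A and TDP1 in RBI2 at 120 min against the control, and TOP2B, TOP3A and TDP2 in RBI2 against CX-5461 at 120 min.

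TOP2A, the type II enzyme of dividing cells that separates sister chromatids, was not shown to change with the compound described as its poison. Its 2 replicates were at 770 and 955 CPM in the control. With CX-5461 they were at 694 and 736 CPM at 10 min, 772 and 727 CPM at 30 min, and 824 and 913 CPM at 120 min. With RBI2 they were at 728 and 733 CPM at 10 min, 708 and 679 CPM at 30 min, and 772 and 837 CPM at 120 min. Of the 12 treated libraries 5 lay between the controls and 7 lay below both. Both libraries lay below both controls in CX-5461 at 10 min and in RBI2 at 10 and 30 min, and the groups overlapped at the other labels. In CX-5461 the log2 differences from the control were -0.27 ± 0.10 (SE) at 10 min, -0.20 ± 0.10 at 30 min and 0.01 ± 0.10 at 120 min, with 95% intervals of -0.49 to -0.05, -0.42 to 0.02 and -0.21 to 0.23. Their adjusted p in the edgeR test was 0.149, 0.233 and 0.978. In the RBI2 groups they were -0.24, -0.31 and -0.10, with adjusted p of 0.355, 0.129 and 0.493 in the same edgeR test, and DESeq2 passed the middle value with an adjusted p of 0.0307. Without control replicate 1 the differences of CX-5461 at 10 and 30 min were -0.42 and -0.35 with adjusted p of 0.00228 and 0.00561 in edgeR, and without control replicate 2 they were -0.12 and -0.05 with 0.577 and 0.955. These directions belong to the counts and not to the values per length: in deposited TPM the differences from the control were between 0.20 and 0.66 and all above 0.

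The length used for TPM moved between libraries. Salmon's effective length is the length a transcript offers to reads after its bias correction. It was averaged here over the transcripts of TOP2A with their TPM as weights, so it also moves with how reads are divided among them. This average was 3971 bases in control replicate 2 and 3959 bases in CX-5461 at 120 min replicate 2. In the other 12 libraries it lay between 1812 and 2606 bases. The mean level in the control was accordingly 329 ± 152 TPM (SD, n = 2). With an offset for the effective length in edgeR the differences of TOP2A from the control were between 0.05 and 0.41, again opposite in sign in 5 of 6 comparisons, and none passed the adjusted p. Directly compared, RBI2 and CX-5461 differed in TOP2A by 0.03, -0.11 and -0.11 at 10, 30 and 120 min, with intervals of -0.19 to 0.25, -0.33 to 0.11 and -0.33 to 0.11. When GC content and length were corrected for, the last of these was 0.33 with an adjusted p of 0.0179 in edgeR's quasi-likelihood test, so its sign and its call depended on the correction.

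TOP2B, the type II enzyme that also acts in non-dividing cells and at transcribed genes, was lower in RBI2 at 120 min than in the control and than in CX-5461 at 120 min. Its 2 replicates were at 108 and 173 CPM in the control. With CX-5461 they were at 110 and 121 CPM at 10 min, 112 and 82.2 CPM at 30 min, and 124 and 153 CPM at 120 min. With RBI2 they were at 106 and 103 CPM at 10 min, 89.7 and 93.1 CPM at 30 min, and 80.5 and 93.1 CPM at 120 min. All 6 libraries of RBI2 lay below both controls, and the controls themselves were further apart than any other pair. At 120 min TOP2B fell by 0.70 ± 0.21 (SE) on the log2 scale against the control, to 0.617 of its level, with an adjusted p of 0.0426 in edgeR's quasi-likelihood test. Against CX-5461 at the same label it fell by 0.68 ± 0.21, with an adjusted p of 0.0480 in the same edgeR test. After correction for GC content and length these differences were -0.33 and -0.31. Their adjusted p was then 0.132 and 0.133 in edgeR, so both calls were lost. With RBI2 at 10 and 30 min the differences from the control were -0.43 and -0.62, and with CX-5461 they were -0.28, -0.53 and -0.02; none of these 5 passed the adjusted p in edgeR. DESeq2 passed RBI2 at 30 min as well, with an adjusted p of 0.0362. Without control replicate 2 the difference at 120 min was -0.34 with an adjusted p of 0.210, and without control replicate 1 it was -1.0, just short of the limit on the fold change, with an adjusted p of 9.2e-04, both from edgeR. The call against the control held in 5 of 14 fits that left out 1 library, with adjusted p up to 0.217, and the call against CX-5461 in 4 of 14, with adjusted p up to 0.274.

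Many of the estimated reads of TOP2B were not assigned to a full-length transcript. TOP2B-202, which GENCODE release 44 labels as a target of nonsense-mediated decay, held 48.7% of them, the MANE Select transcript TOP2B-201 held 24.8% and the protein-coding TOP2B-204 held 19.9%. TOP2B-202 is 2049 bases long, has 12 exons and begins in exon 24 of the 36 exons of TOP2B-201 (chr3:25618654-25618849, minus strand, GRCh38). It then leaves out exon 25 (chr3:25618418-25618509), which has 92 bases, and otherwise has the exons of the 3′ end of TOP2B-201. The junction is shown because it is what sets the transcripts apart, with 30 bases on each side and the bases after the junction in capitals.
TOP2B-201: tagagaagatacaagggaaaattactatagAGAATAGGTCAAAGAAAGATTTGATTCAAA
TOP2B-202: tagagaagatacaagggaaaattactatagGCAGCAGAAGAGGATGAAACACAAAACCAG
Reads of the other shared exons fit both transcripts, and Salmon divides them by its model. Between libraries the share of TOP2B-201 ranged from 0% to 44.2% and that of TOP2B-204 from 4.03% to 57.6%. In control replicate 2 these shares were 0% and 57.6%, so the levels by transcript are uncertain. The share of TOP2B-202 ranged from 27.1% in CX-5461 at 120 min replicate 2 to 64.2% in RBI2 at 30 min replicate 1, and was 55.8% and 42.4% in the controls. Its own level lay between 41.5 and 73.4 CPM, while all other TOP2B transcripts together lay between 32.1 and 112 CPM. The highest levels of those other transcripts were 112 CPM in CX-5461 at 120 min replicate 2 and 99.6 CPM in control replicate 2, the libraries with the highest total of TOP2B. From protein-coding transcripts alone, an alternative chosen after seeing the data, the difference of RBI2 at 120 min from the control was -0.79 ± 0.39 (SE) with an adjusted p of 0.177 in edgeR's quasi-likelihood test.

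**Figure D3:**
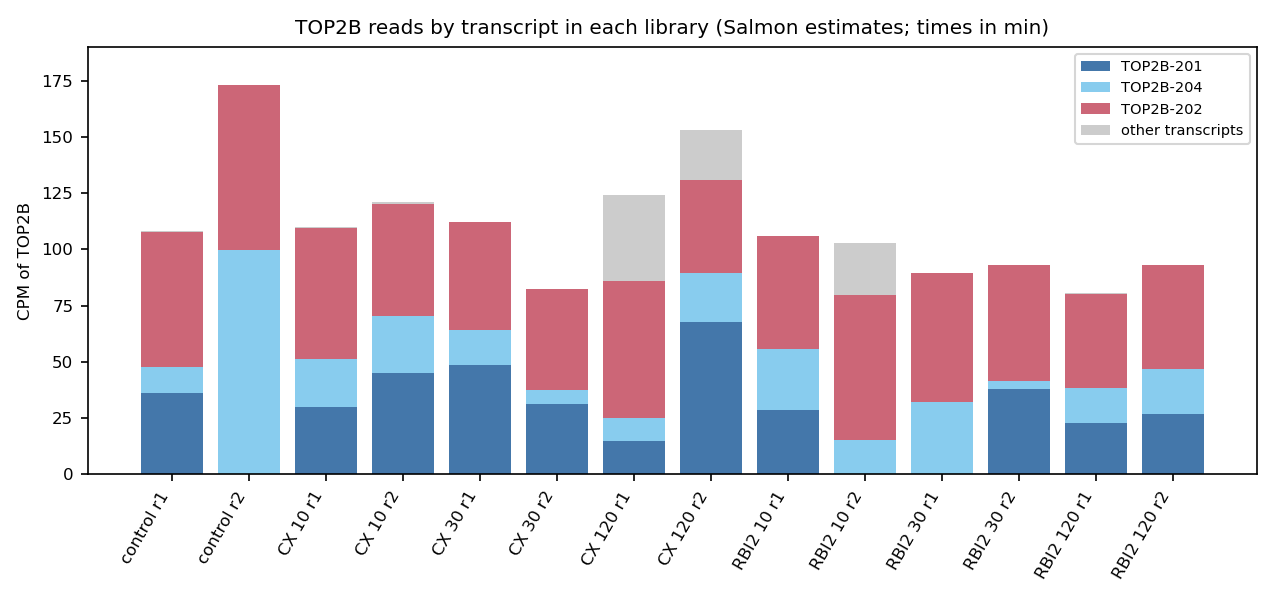
CPM of TOP2B in each of the 14 libraries, divided among the transcripts by Salmon's estimates (r1 and r2 are replicates; CX 10 is CX-5461 at 10 min). TOP2B-202 lies between 41.5 and 73.4 CPM, and the taller bars of control replicate 2 and CX-5461 at 120 min replicate 2 come with more reads on the other transcripts.

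TOP1, the nuclear type IB enzyme, did not pass the adjusted p of the main edgeR fit in any comparison of a group with the control or of the compounds. Its mean was 384 ± 94.5 CPM (SD, n = 2) in the control, from replicates at 317 and 451 CPM, and group means with treatment lay between 299 and 348 CPM. From the control TOP1 differed by -0.33, -0.36 and -0.30 in the RBI2 groups and by -0.16, -0.31 and -0.14 in the CX-5461 groups (log2), with adjusted p between 0.120 and 0.656 in edgeR's quasi-likelihood test. Without control replicate 1 TOP1 passed in all 6 comparisons with the control (at 30 min of RBI2 -0.59 with an adjusted p of 2.8e-04 in edgeR), and without control replicate 2 it passed in none (-0.11 with 0.598 there). Over all times RBI2 and CX-5461 differed by -0.12 (95% interval -0.20 to -0.03), which missed the adjusted p in edgeR at 0.0788 and passed it in DESeq2 at 0.0145. With the 4 libraries of RBI2 and CX-5461 at 10 min alone TOP1 passed (adjusted p = 0.0452 in edgeR), where 1316 of all genes did. It also passed in RBI2 at 30 min against the control without the filter on low counts, where 2292 of all genes did. TOP1MT, the type IB enzyme of mitochondria, was at 39.8 and 42.4 CPM in the control and at 33.6 and 31.9 CPM in CX-5461 at 120 min, the highest and the lowest of the groups. This difference of -0.33 ± 0.08 (SE) had an adjusted p of 0.279 in edgeR's quasi-likelihood test, in a comparison where 0.0778% of all genes passed, and an adjusted p of 0.0144 in edgeR without control replicate 1.

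TOP3A, the type IA enzyme that works with BLM, RMI1 and RMI2 to resolve linked DNA molecules in the nucleus and also acts in mitochondria, rose with RBI2. Its 2 replicates were at 93.5 and 75.6 CPM in the control. With CX-5461 they were at 93.5 and 92.3 CPM at 10 min, 90.1 and 90.1 CPM at 30 min, and 93.1 and 105 CPM at 120 min. With RBI2 they were at 97.6 and 111 CPM at 10 min, 108 and 107 CPM at 30 min, and 136 and 121 CPM at 120 min. All 6 libraries of RBI2 lay above both controls, and those at 120 min lay above every other library. Against the control TOP3A rose by 0.60 ± 0.11 (SE) on the log2 scale at 120 min, 1.52 times its level, with an adjusted p of 0.0116 in edgeR's quasi-likelihood test. Against CX-5461 it was higher by 0.37 ± 0.11 at 120 min (adjusted p = 0.0441 in edgeR) and by 0.28 ± 0.06 over all times (adjusted p = 0.0135 in edgeR). Corrected for GC content and length, these differences were 0.28, 0.21 and 0.10 with adjusted p of 0.186, 0.305 and 0.148 in edgeR, so all 3 calls were lost. Among all 21 pairs of groups, RBI2 at 120 min also passed against CX-5461 at 10 min (0.47) and at 30 min (0.51). With RBI2 at 10 and 30 min the differences from the control were 0.30 and 0.34 and did not pass in edgeR, with adjusted p of 0.308 and 0.129. Without RBI2 at 120 min replicate 1 the call against the control was lost (adjusted p = 0.0893 in edgeR), and it held without control replicate 2, at 0.44 with an adjusted p of 0.0225 in edgeR.

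TOP3B, the type IA enzyme that acts with TDRD3 and also on RNA, was the lowest of the set. It passed in no comparison of the main edgeR fits. Corrected for GC content and length, it was lower in CX-5461 at 10 min than in the control (adjusted p = 0.0230 in edgeR). There 1202 of all genes passed. RBI2 differed from CX-5461 at 120 min by 0.21 in TOP3B, and by 0.26 without control replicate 2. Over all times TOP3B was higher in RBI2 from protein-coding transcripts alone (adjusted p = 0.0213 in edgeR). Its group means lay between 14.7 and 17.8 CPM, and its differences from the control were between -0.17 and 0.10 on the log2 scale, with signs that changed between ways of processing in every comparison but CX-5461 at 10 min. Its reads were divided among TOP3B-201 (48.1%), TOP3B-214 (18.3%) and TOP3B-210 (10.1%), and the share of TOP3B-201 ranged from 0% to 68.3% between libraries, so no transcript of it is compared. The partners of topoisomerase III were 5 genes (BLM, RMI1, RMI2, TDRD3 and FMR1), and 1 of them passed with RBI2 at 120 min both against the control and against CX-5461, where 18.0% and 16.1% of all genes did. Against the control 0 of the 5 passed with the GC and length correction, where 619 of all genes did. RMI1, which binds TOP3A and BLM, fell by 0.64 ± 0.13 (SE) against the control and by 0.79 ± 0.12 against CX-5461, with adjusted p of 0.0132 and 0.00732 in edgeR's quasi-likelihood test. BLM, the helicase of the complex, had the next smallest adjusted p of the list, 0.123 in edgeR, for a difference of -0.42 from CX-5461 at 120 min.

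TDP1, which frees DNA ends from topoisomerase I, was lower in RBI2 at 120 min than in the control. Its 2 replicates were at 56.9 and 69.0 CPM in the control, 58.2 and 58.1 CPM in RBI2 at 10 min, 50.8 and 51.9 CPM in RBI2 at 30 min, and 48.8 and 52.1 CPM in RBI2 at 120 min. The 6 libraries of CX-5461 lay between 54.5 and 59.6 CPM. Both libraries of RBI2 at 10 min lay between the controls (-0.11, adjusted p = 0.571 in edgeR), and those at 30 and 120 min lay below both. TDP1 fell by 0.32 ± 0.09 (SE) at 120 min, with an adjusted p of 0.0411 in edgeR's quasi-likelihood test. After correction for GC content and length the difference was -0.22 (adjusted p = 0.0704 in edgeR), so the call was lost. It was also lost with the offset for the effective length (0.120 in edgeR) and without the filter on low counts (0.116 in edgeR). Without control replicate 2 the difference was -0.19. The call held in 2 of 14 fits that left out 1 library, those without control replicate 1 and without CX-5461 at 30 min replicate 1. Of its reads 49.2% were assigned to TDP1-203 and 41.2% to the MANE Select TDP1-201, while control replicate 2 had 15.2% on TDP1-203.

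TDP2, which frees DNA ends from topoisomerase II, had its lowest values in RBI2 at 120 min. Its replicates there were at 50.2 and 48.2 CPM, against 55.6 and 57.4 CPM in the control and 58.7 and 58.1 CPM in CX-5461 at 120 min. Both libraries lay below both of either other group. TDP2 was lower by 0.25 ± 0.07 (SE) than in CX-5461, with an adjusted p of 0.0471 in edgeR's quasi-likelihood test, and it missed the threshold in DESeq2 at 0.0582. The call held in 2 of 14 fits that left out 1 library. Against the control its difference was -0.20 ± 0.08, with an adjusted p of 0.0882 in edgeR. Corrected for GC content and length, the difference from CX-5461 was -0.06 and that from the control was 0.04, with adjusted p of 0.602 and 0.768 in edgeR. With CX-5461 TDP2 differed from the control by 0.03, 0.02 and 0.05 at 10, 30 and 120 min, with 95% intervals inside -0.15 to 0.21.

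The calls are set here beside those over all genes, and no test of the set as a whole was made. With RBI2 at 120 min 3 of the 8 genes passed the adjusted p of edgeR's quasi-likelihood test against the control (TOP2B, TOP3A and TDP1), where 18.0% of all genes did, and 3 of 8 passed against CX-5461 (TOP2B, TOP3A and TDP2), where 16.1% did. Over all times 1 of 8 passed (TOP3A) where 8.76% did. DESeq2 passed 3 there (TOP1, TOP2B and TOP3A), where 1884 of all genes did. TOP2B differed by -0.29 over all times in edgeR, with an adjusted p of 0.0884 there and of 0.0400 in DESeq2. In the 5 other comparisons with the control, 0 of 8 passed, where 0.201% (RBI2 at 10 min), 0.0713% (RBI2 at 30 min), 4.77%, 0% and 0.0778% (CX-5461 at 10, 30 and 120 min) of all genes passed. In the direct comparisons at 10 and 30 min 0 of 8 passed, where 3.06% and 0.0130% did. At an unadjusted p under 0.05 the counts were 3, 5 and 5 of 8 with RBI2 (12.9%, 25.8% and 35.9% of all genes) and 1, 3 and 1 of 8 with CX-5461 (22.5%, 22.9% and 12.4%). In the direct comparisons they were 0, 1 and 5 of 8 (14.2%, 7.79% and 31.6%), and over all times 5 of 8 (27.2%). Where edgeR passed 0 of 8, DESeq2 passed 2 in RBI2 at 30 min (TOP2A and TOP2B), where 908 of all genes did. In the other 6 comparisons DESeq2 passed 0 as well. With RBI2 both libraries lay above both controls for 1, 1 and 1 of the 8 genes at 10, 30 and 120 min (18.2%, 26.3% and 27.2% of all genes) and below both for 4, 6 and 3 (16.2%, 25.0% and 27.7%). With CX-5461 they lay above for 0, 0 and 1 (23.0%, 19.8% and 19.4%) and below for 3, 3 and 1 (24.0%, 20.0% and 13.7%). RBI2 lay above CX-5461 for 3, 2 and 3 (30.1%, 23.0% and 30.7%) and below for 2, 3 and 4 (27.3%, 18.1% and 33.0%). The counts rested on single libraries, those of the control and also those of RBI2 at 120 min. Without control replicate 1, 5, 5 and 6 of 8 passed the adjusted p of edgeR in the RBI2 groups and 5, 5 and 4 in the CX-5461 groups, where 4756, 6225 and 6991 and 6117, 6399 and 3509 of the 15426 genes did. Without control replicate 2 the differences of TOP2B, TOP3A and TDP1 in RBI2 at 120 min from the control were smaller, at -0.34, 0.44 and -0.19.

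The levels of most of the 8 genes moved with the GC trend of the libraries. TOP2A (38.8% GC), TOP2B (39.6%) and TDP2 (40.0%) lay below the lower quartile of 42.0% of all genes tested. TOP1 (42.1%) lay just above that quartile, and TOP1 and TDP1 (46.4%) lay below the median of 48.0%. TOP3A (52.1%), TOP1MT (57.4%) and TOP3B (59.1%) lay above the median. Pearson's r over the 14 libraries between the log2 CPM of a gene and the GC trend was -0.94 for TOP2B, -0.93 for TDP1, -0.84 for TOP1, -0.67 for TOP2A, -0.60 for TDP2 and 0.65 for TOP3A. It was 0.23 for TOP3B and -0.15 for TOP1MT, all as a description of libraries that share treatment groups. After each library was smoothly corrected for GC content and length, 0 of the 8 genes passed in RBI2 at 120 min against the control. The differences of TOP2B, TOP3A and TDP1 were then -0.33, 0.28 and -0.22, with adjusted p of 0.132, 0.186 and 0.0704 in edgeR's quasi-likelihood test, and they kept their signs. The same correction left 303 genes higher and 316 lower of all genes in this comparison, in place of 1373 and 1399. Because RBI2 at 120 min and control replicate 2 stood near opposite ends of the trend, the part of the trend in these differences cannot be told apart from the treatment in this design. Between RBI2 and CX-5461 over all times, 1 of the 8 genes passed with the correction, where 2093 of all genes did. This gene was TOP2B, in place of TOP3A without the correction.

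**Figure D4:**
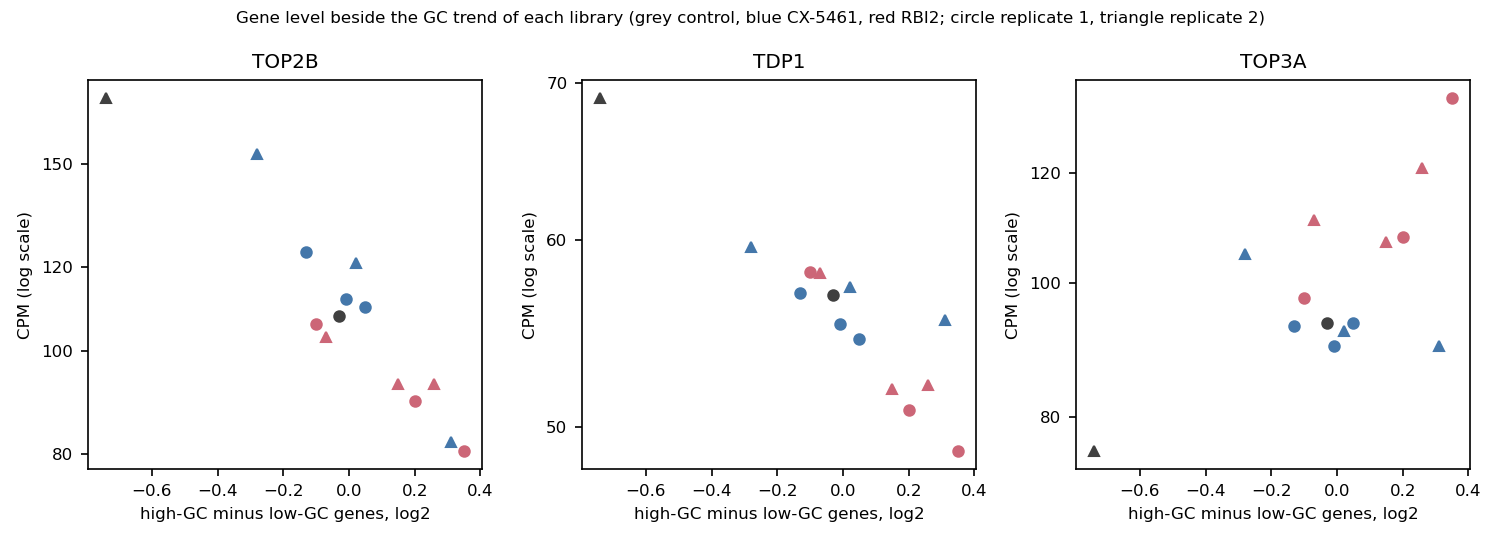
CPM of TOP2B, TDP1 and TOP3A (log axis) in each library against the GC trend of that library, the median log2 CPM of GC-rich less GC-poor genes relative to the mean of all libraries (grey control, blue CX-5461, red RBI2; circles replicate 1, triangles replicate 2). Control replicate 2 stands alone at -0.74, and over the 14 libraries r is -0.94 for TOP2B, -0.93 for TDP1 and 0.65 for TOP3A.

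**Figure D5:**
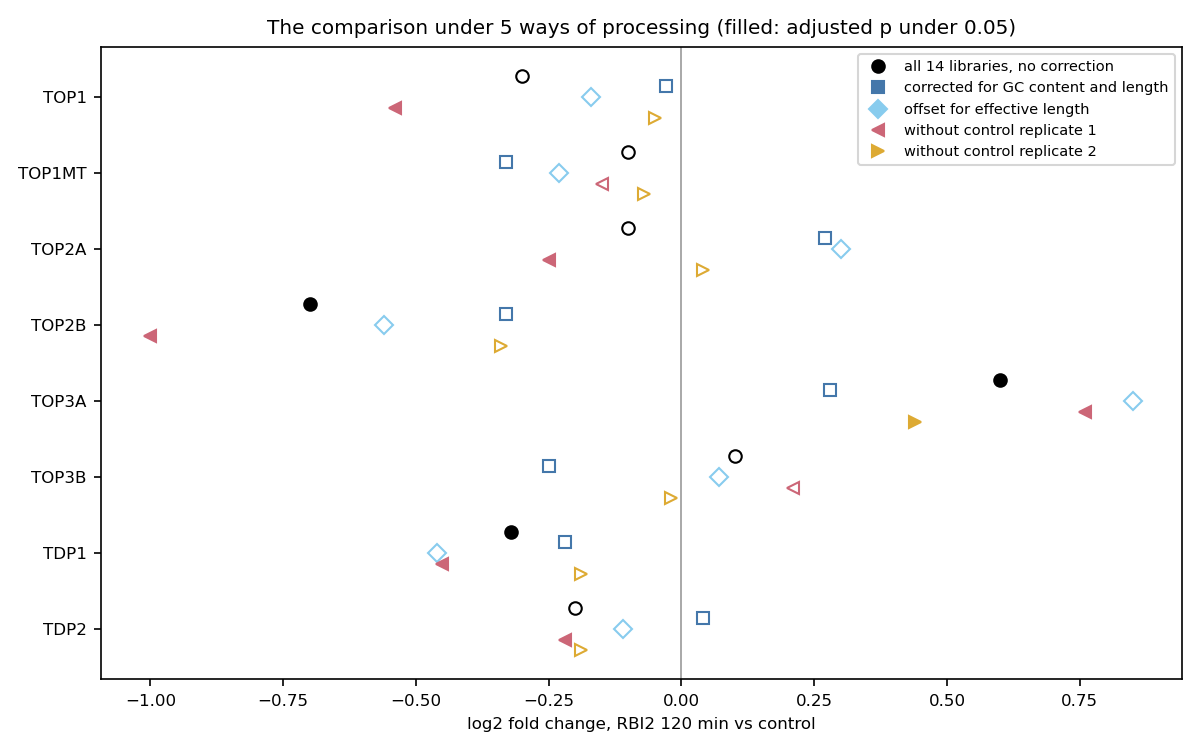
Log2 fold changes of the 8 genes in RBI2 at 120 min against the control under 5 ways of processing, filled where the adjusted p was under 0.05. TOP2B moves from -0.70 to -0.33 and TOP3A from 0.60 to 0.28 with the GC and length correction, and TOP2A lies on either side of 0.

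Genes that act downstream or beside these enzymes were counted in lists that were chosen with earlier results of these data known. Of 18 genes for the removal of trapped topoisomerase and the repair of breaks, 1 rose and 7 fell with RBI2 at 120 min against the control, where 18.0% of all genes passed (1373 higher and 1399 lower of 15426). The median of the list was -0.22 against 0.01 for all genes tested. XRCC5 and XRCC6, which form the Ku complex of end joining, had the smallest adjusted p of the list and fell by 0.42 and 0.24, with adjusted p of 0.0156 and 0.0220 in edgeR's quasi-likelihood test. The others are named after their values were seen. LIG3, a ligase of single-strand break repair, rose by 0.39 with an adjusted p of 0.0420 in edgeR. MRE11 and NBN of the MRN nuclease complex fell by 0.44 and 0.57, while RBBP8, which works with it, fell by 0.64. SPRTN, a protease of DNA-protein crosslinks, fell by 0.46, and ZNF451, a SUMO ligase that aids TDP2, fell by 0.53. Without control replicate 2 the counts were 1 higher and 2 lower, where 928 of all genes were higher and 555 lower. With the GC and length correction 1 gene of this list was higher and 1 lower. Against CX-5461 at 120 min, where 16.1% of all genes passed (814 higher and 1676 lower), 7 of the 18 were lower and none higher, and with the correction 2 were lower and 1 higher, where 748 and 723 of all genes were.

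Of 14 genes of condensin, cohesin and CTCF, which organise chromosomes together with type II topoisomerases, 5 fell with RBI2 at 120 min against the control, beside the 18.0% of all genes that passed in either direction. RAD21 of cohesin and NCAPG2 of condensin, with the smallest adjusted p of the list, fell by 0.42 and 0.40, and the others were NCAPG, STAG1 and STAG2. The median of the list was -0.23. With the GC and length correction 0 of the 14 passed, and without control replicate 2 it was 1, where 303 and 316 of all genes, and then 928 and 555, were higher and lower. Of 25 genes of G2 and M phase, 9 fell and none rose in the same comparison (18.0% of all genes passed), with a median of -0.44 against 0.01 for all genes. ASPM, a spindle pole protein, fell by 1.02 ± 0.27 (SE), with an adjusted p of 0.0310 in edgeR's quasi-likelihood test. It was the only gene of these lists called changed in this comparison. With the correction 1 of the 25 was lower, and without control replicate 2 it was 3, beside the same counts over all genes. With CX-5461 against the control CCNA2, a cyclin of S and G2 phase, was the only gene of these 4 lists to pass, lower by 0.46 at 10 min with an adjusted p of 0.0295 in edgeR, where 4.77% of all genes passed.

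TOP2A is itself a gene of G2 and M phase, and its correlation with the genes of that list ranged from -0.72 to 0.91. The genes of this list are named after their values were seen. Over the 14 libraries Pearson's r of log2 CPM with TOP2A was 0.91 for MKI67 and 0.86 for CENPF, and was between 0.61 and 0.91 for 15 of the 25 genes, whose mean transcript lengths had a median of 3399 bases (2247 to 11182). For 7 genes r was below 0, down to -0.72 for BIRC5, -0.68 for CDC20 and -0.67 for UBE2C, and their median length was 1505 bases (767 to 2496), so the ranges of length overlapped. The other 3 genes were AURKA (0.25), CENPE (0.22) and PLK1 (0.10), and CENPE is among the longest with 8466 bases. TOP2A has a length of 5365 bases, and r between TOP2A and the length trend of the libraries (longest less shortest quartile of genes) was 0.79. The 3 genes most like TOP2A by this measure were ERCC6, EIF3A and BRD8 (r of 0.95 to 0.96). For TOP2B they were IQGAP1, CKAP5 and ASPM (0.99), for TOP1 IK, PPIL4 and EIF2AK1 (0.98), and for TOP3A CLSTN1, PLEKHG3 and UPF1 (0.97 to 0.98). For TDP1 they were ODR4, RBMX and ECD (0.96 to 0.98), and for TDP2 GLO1, STRAP and MRPL35 (0.93). For TOP3B they were LINC00339, AUNIP and NRDE2 (0.79). All these genes share the libraries' depth, composition and treatment, and the part of these in the values was not tested. Within the set TOP2B and TOP1 had an r of 0.87 and TOP2B and TDP1 of 0.86, while TOP3A had -0.76 with TDP1 and -0.62 with TOP2B.

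The genes lie on 7 chromosomes in GENCODE release 44 (GRCh38). TOP1 is at chr20:41028822-41124487 on the plus strand, TOP1MT at chr8:143304384-143359979 and TOP2A at chr17:40388525-40417896, both on the minus strand. TOP2B is at chr3:25597978-25664909 and TOP3A at chr17:18271428-18315007, both on the minus strand. TOP3B is at chr22:21957025-21982813 on the minus strand, TDP1 at chr14:89954939-90044764 on the plus strand and TDP2 at chr6:24649979-24666930 on the minus strand. The MANE Select transcript held 100% of the reads of TOP1, 95.9% of those of TOP1MT, 93.6% of TOP2A, 93.7% of TOP3A and 98.4% of TDP2. On the same strand TOP2B overlaps MIR4442 and ENSG00000275227, and TOP2A overlaps a Y_RNA gene. TOP1, TOP1MT, TOP3A and TOP3B overlap genes on the opposite strand, and although the libraries were stranded, the strand setting of the assignment was not given in the sources used here.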

How the data were processed

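RNA of MDA-MB-231 cells (14 libraries, 7 groups of 2) was made into stranded poly(A) libraries. After rDNA reads were taken out, the authors quantified GRCh38 transcripts with Salmon (1.3.0 per the submitters' processing notes). The deposited values are, per transcript, the authors' estimated counts (neither normalized nor rounded) and TPM values. Identifiers were matched to GENCODE release 44 (225662 of 228754 transcripts); the rest held 1.03% to 1.13% of reads and were left out. Estimated counts were summed per gene and rounded. Genes were filtered with filterByExpr (minimum count 10), scaled by TMM and tested with edgeR 4.0.16 in R 4.3.3 (limma 3.58.1) in a model of 7 groups with all 14 libraries, which shared a common coefficient of variation of 12.3%. The p-values were adjusted by Benjamini-Hochberg over 15426 genes in each comparison. Over all times, the 12 treated libraries were fitted with time as an additive term. Log2 CPM used a prior count of 2. TPM entered no test. The scripts were tested on simulated data.

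The 8 genes and the lists were chosen with earlier results of these data known. The named genes are the 8 members, of each list the changed genes or else the 2 with the smallest adjusted p, pseudogenes, transcripts with at least 10% of a gene's reads, and the 3 most alike genes (mean of at least 5 CPM), which for TOP1MT are not reported here. Further list genes were named after their values were seen. Of 2 meiotic symbols, SPO11 matched. Alternatives were DESeq2 1.42.0, its size factors, an unadjusted p, no fold limit, no count filter, an effective-length offset, a loess correction (span 0.3) of each library for GC content and length, the replicate block, both of these together, the 4 libraries of a comparison alone, TPM, and each library left out. Protein-coding transcripts alone were added after seeing the data.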

Additional observations from a re-analysis of the deposited data

Results flagged for a closer look

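RBI2 and CX-5461 at 120 min differed from each other in 3 genes of the set by edgeR's quasi-likelihood test of the difference itself. TOP2B differed by -0.68 (adjusted p = 0.0480), TOP3A by 0.37 (adjusted p = 0.0441) and TDP2 by -0.25 (adjusted p = 0.0471), on the log2 scale with 2 libraries a group. All 3 lay close to the threshold, and 16.1% of all genes passed it in this comparison. Without control replicate 1 the differences of TOP2B, TOP3A and TDP2 were -0.68, 0.37 and -0.25. Without control replicate 2 they were -0.62, 0.43 and -0.19. Which genes of the set passed changed with the control library left out. The control is not part of this comparison and enters it only through the spread and scaling shared by all libraries. With the 4 libraries of the comparison alone, TOP2B and TOP3A passed, with adjusted p of 0.0165 and 0.0409 in edgeR. TDP2 did not pass there (0.0727 in edgeR), where 3048 of all genes did. Without CX-5461 at 120 min replicate 1 the adjusted p of TOP2B, TOP3A and TDP2 was 0.0778, 0.155 and 0.324 in edgeR. Without CX-5461 at 120 min replicate 2 their values were -0.48, 0.51 and -0.21 with adjusted p of 0.274, 0.109 and 0.241 in edgeR. Corrected for GC content and length, they were -0.31, 0.21 and -0.06 with adjusted p of 0.133, 0.305 and 0.602 in edgeR.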

How the results depend on the processing

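The count of changed genes of the set was 0 in each of the 10 comparisons under every alternative with a limit on the fold change. Without that limit it was 3 in RBI2 at 120 min against the control, 3 in RBI2 against CX-5461 at 120 min and 1 over all times, and 0 in the other 7. Leaving out each replicate in turn gave 0 to 0.

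Of the calls at the adjusted p of edgeR's quasi-likelihood test in RBI2 at 120 min against the control, TOP3A held in 18 of 23 alternatives, TOP2B in 9 and TDP1 in 6. Against CX-5461 TOP2B held in 9, TOP3A in 10 and TDP2 in 3 of 23, and over all times TOP3A in 20 of 22. With the 4 libraries of the comparison alone, none passed against the control (adjusted p of 0.322 to 0.366 for these 3 genes), and 0 of all genes tested did. Without control replicate 1 the differences of TOP2B, TOP3A and TDP1 in RBI2 at 120 min from the control were -1.0, 0.76 and -0.45. Without control replicate 2 they were -0.34, 0.44 and -0.19. No library is known to be faulty, and 2 libraries a group leave these calls resting on single libraries, treated ones as well as controls.

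The replicate numbers carried no strong difference shared between groups. The correlation of replicate differences between groups was -0.18 to 0.18, over 0.1 in 3 of 21 pairs. These values cannot show whether samples were handled in pairs. With the replicate block the count of changed genes stayed 0, while the calls at the adjusted p of edgeR against CX-5461 at 120 min went from 3 to 0 and those against the control stayed 3. Over all genes these calls went from 2490 to 2233 and from 2772 to 2384. With the replicate block and the GC and length correction together, the calls of the set were 1 (TOP2A) and 0, where 1360 and 503 of all genes passed. Over the 80 fold changes, the sign differed from the one reported in 103 of 2072 alternative values, none of them with both values past the threshold, and most often in TPM (24).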
